A study of Arabidopsis thaliana with 9 samples.

Results

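The comparison described here sets root tips of the Arabidopsis thaliana mutant almt1 against wild-type tips, both grown with scarce phosphate. Its members are the loci with at least 20 sequencing counts in the 2 libraries together, which were 20094 of the 33602 loci in the count tables. A further 4058 loci had 1 to 19 counts and 9450 had none. The almt1 seedlings and the wild-type seedlings (Col-0, the background of the mutant) were taken 5 days after germination from a dilute agar medium with sucrose, 5 µM phosphate and iron and without malate, and RNA came from the last 2 to 3 mm of the root. The study as a whole held 9 libraries, 1 for each of 9 groups. The same genotypes at 1 mM phosphate, called high phosphate here, gave a second almt1 and wild-type pair that shares no library with the first. The other 5 libraries were the mutant stop1 at low and at high phosphate, both mutants at low phosphate with 1 mM malate, and wild type on low iron (low phosphate, no added iron, and 100 µM of the iron chelator ferrozine). For stop1 with malate the labels conflict: its title points to high phosphate, but its treatment field to low phosphate with malate, which was followed here. The labels name no almt1 allele.

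ALMT1 is a channel in the root cell membrane that releases malate, and STOP1 is a zinc-finger transcription factor that its expression requires. In wild-type roots on scarce phosphate, released malate and iron in the cell walls of the tip take part in the arrest of root growth, together with the ferroxidase LPR1, class III peroxidases and callose deposition. Scarce phosphate also sets off a systemic programme through the transcription factor PHR1, which raises phosphate transporters, phosphatases and enzymes that replace phospholipids. Mutants in ALMT1 keep growing under these conditions, and the comparison asks which transcripts of the tip differ in the mutant.

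A locus is said to have risen or fallen in almt1 where its scaled count was at least 2-fold apart from wild type and the 95% counting interval of the ratio left out equality. With 1 library a group the difference has no replicate check, no p-value can be given, and the interval covers counting error only. Levels are CPM, the scaled count of a locus relative to library size, scaled over all 9 libraries. Ratios are on the log2 scale, almt1 over wild type, with scaling factors from the 2 libraries compared. This places the low-phosphate ratios 0.04 above the log2 ratio of the printed CPM values.

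At low phosphate 911 loci were higher in almt1, 4.53% of those measured, and 1633 were lower, 8.13%. Both directions together came to 12.7%, and these shares are the background for the list counts that follow. At high phosphate 198 of 19939 measured loci were higher in almt1 (0.993%) and 125 were lower (0.627%), together 1.62%. The fallen loci also lay further out, with 664 loci at least 4-fold lower and 171 at least 4-fold higher, and with 172 at least 16-fold lower against 7 at least 16-fold higher. The median log2 ratio over all loci was 0.01, and the median of its absolute value was 0.34 at low phosphate and 0.21 at high phosphate.

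**Figure D1:**
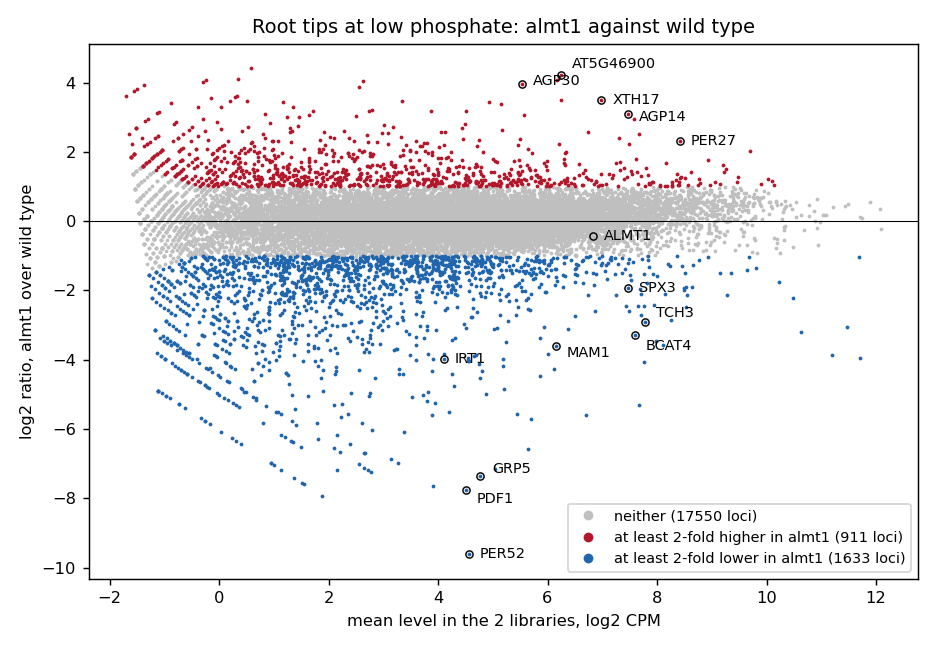
Each point is 1 of 20094 loci, with its mean level in both libraries in log2 CPM on the horizontal axis and its log2 ratio, almt1 over wild type at low phosphate, on the vertical axis. The 911 red loci were at least 2-fold higher in almt1 and the 1633 blue loci at least 2-fold lower, and the blue cloud reaches down to PER52 at -9.62 while the red one ends near 4.4.

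The wild-type low-phosphate library stands apart from the other 8. It had the lowest depth, 20619740 counts in genes against 34149185 in almt1 at low phosphate and up to 37189056 elsewhere. Alignments that were not unique made up 8.29% of all counts in almt1 and 44.9% in wild type at low phosphate. At high phosphate they made up 14.3% in almt1 and 5.03% in wild type. These shares are of gene and summary lines together and may count a read more than once. Mitochondrial loci took 0.076% of gene counts in almt1 and 1.01% in wild type, while the other 7 libraries held at most 0.163%. Of 32 mitochondrial loci measured, 29 were lower in almt1 and 0 higher, with a median log2 ratio of -3.40, and all 43 plastid loci were lower with a median of -3.35. In the high-phosphate pair the order was the opposite, with 14 of 21 mitochondrial and 24 of 27 plastid loci higher in almt1. Ratios also went with gene length, from a median of 0.16 in the shortest of 5 classes (72 to 1556 bases) to -0.08 in the longest. In the high-phosphate pair the same classes ran from -0.25 to 0.21. At low phosphate 10.6% of the shortest class were higher and 10.9% lower, against 1.75% and 5.50% of the longest. The part of these library features in the results below was not tested. No other library of the wild-type low-phosphate condition is at hand to take the place of this one. The high-phosphate pair is therefore given beside many of the results, and other libraries beside some.

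ALMT1 itself was read at 97.8 CPM in almt1 and 134 CPM in wild type at low phosphate, a log2 ratio of -0.41 (95% interval -0.49 to -0.34). At high phosphate the values were 41.8 CPM in almt1 and 57.2 CPM in wild type. In stop1 ALMT1 stood at 0.0697 CPM at low phosphate and 0.0393 CPM at high phosphate. The almt1 tips at low phosphate thus held ALMT1 transcript 1.33-fold below the wild-type level, and since no allele is given, this level does not check the label. STOP1 had 117 CPM in almt1 and 150 CPM in wild type (log2 ratio -0.31, interval -0.38 to -0.24). Of 17 measured members of the STOP1 and malate list 0 rose and 3 fell, with a median of -0.51. Those that fell were PGIP2, an inhibitor of fungal polygalacturonases (-1.70), the potassium transporter HAK5 (-1.50) and the citrate exporter MATE (-1.06), all at or below 3.30 CPM in almt1.

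Genes of the systemic phosphate programme were lower in almt1. Among 33 measured members 0 rose and 13 fell, with a median log2 ratio of -0.71 against 0.01 over all loci, and 30 of the 33 ratios lay below 0. At high phosphate 0 members passed in either direction and the median was -0.02. SPX3, a sensor protein of phosphate status, had 74.3 CPM in almt1 and 290 CPM in wild type at low phosphate, but at high phosphate it had 0.500 CPM in almt1 and 0.524 CPM in wild type. In the other low-phosphate libraries SPX3 had 152 CPM in stop1 and 9.94 CPM in wild type on low iron. With malate it had 18.9 CPM in almt1 and 6.42 CPM in stop1. The pyrophosphatase gene PS2 had 150 CPM in almt1 and 588 CPM in wild type (log2 ratio -1.93, interval -1.98 to -1.89). At high phosphate it had 6.94 CPM in almt1 and 5.98 CPM in wild type. Both genes were therefore far above their high-phosphate level in almt1, yet about 3.8-fold below wild type.

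The lowest ratios of this list belonged to PHT1;5 and PHT1;7, phosphate transporters of the PHT1 family. PHT1;5 had 1.60 CPM in almt1 and 12.8 CPM in wild type (-2.95, interval -3.41 to -2.52), and PHT1;7 had 1.79 CPM in almt1 and 9.99 CPM in wild type (-2.44). PHT1;8 was lower by 1.60 on the log2 scale. Further members, named after their values were seen, were enzymes that free phosphate from membrane lipids: the phospholipase NPC4 (-1.57), the head-group phosphatase PECP1 (-1.50), the diesterase GDPD1 (-1.30) and the phospholipase PLDZ2 (-1.24). GDPD1 and PLDZ2 overlap a neighbouring locus, and the libraries do not keep the strand. The non-coding RNA IPS1, at 132 CPM in almt1 and 223 CPM in wild type, did not reach 2-fold (-0.71), and the regulator SPX4 was at 0.02; both were also named after their values were seen.

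PHR1 binds an element called P1BS, GNATATNC, in the promoters of phosphate-starvation genes. The 250 bases before the annotated start of 19997 measured loci were searched on both strands in TAIR10.1, the RefSeq assembly at hand, and 5.55% held the element. It was present in 9 of the 33 windows of the phosphate list, of which 7 belonged to the 13 members that fell and 2 to the 20 that did not. Among all loci that fell, 7.51% of 1558 windows held it, and among those that rose 6.48% of 910. The windows of SPX3, PS2 and GDPD1 are shown with the element in capitals, because these genes cover the sensor, phosphatase and lipid branches of the list; they lie at chr2:18606160-18606409 (plus strand), chr1:27466349-27466598 (minus strand) and chr3:350011-350260 (minus strand), and are written 5′ to 3′ towards the gene.
SPX3: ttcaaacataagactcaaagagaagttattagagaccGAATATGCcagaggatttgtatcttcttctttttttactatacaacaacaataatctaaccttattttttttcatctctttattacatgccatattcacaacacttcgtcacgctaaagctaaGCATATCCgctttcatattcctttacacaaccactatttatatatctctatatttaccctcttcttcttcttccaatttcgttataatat
PS2: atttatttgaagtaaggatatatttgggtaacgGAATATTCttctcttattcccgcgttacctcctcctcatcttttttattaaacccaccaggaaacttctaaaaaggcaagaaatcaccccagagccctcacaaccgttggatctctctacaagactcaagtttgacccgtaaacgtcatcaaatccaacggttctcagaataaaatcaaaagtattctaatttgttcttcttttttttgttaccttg
GDPD1: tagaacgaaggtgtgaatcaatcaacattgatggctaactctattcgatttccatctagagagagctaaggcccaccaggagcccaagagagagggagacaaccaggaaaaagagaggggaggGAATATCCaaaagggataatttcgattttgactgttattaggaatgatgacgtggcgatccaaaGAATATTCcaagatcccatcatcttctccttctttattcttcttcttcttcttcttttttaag
The match describes letters in these windows and says nothing about binding in these tips.

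Methionine-derived glucosinolates are sulfur-rich defence compounds of the cabbage family, and their pathway was the list that fell most evenly. Of 14 measured members 13 fell and 0 rose, with a median log2 ratio of -1.89, while at high phosphate 0 members passed and the median was 0.05. BCAT4, the aminotransferase of the first chain-elongation step, had 35.9 CPM in almt1 and 363 CPM in wild type at low phosphate. The high-phosphate pair gave 5.41 CPM in almt1 and 6.50 CPM in wild type. Its low-phosphate log2 ratio was -3.30 (interval -3.39 to -3.21), and it overlaps another locus. MAM1, the synthase of that step, had 11.0 CPM in almt1 and 136 CPM in wild type at low phosphate (-3.60, interval -3.76 to -3.44).

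The fall covered the other steps of the pathway too. MAM3 was lower at -2.44, the isomerase subunit IPMI2 at -2.21 and the oxime-metabolising cytochrome CYP83A1 at -2.14. The exception, singled out after its value was seen, was SUR1, a lyase shared with the indole branch. It had 61.5 CPM in almt1 and 126 CPM in wild type and missed the 2-fold limit at -0.99. Summed over the list, the level was 381 CPM in almt1 and 1785 CPM in wild type at low phosphate, and between 82.6 and 305 CPM in the other 7 libraries. The wild-type library was thus the one that stood far above all others.

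Indole-derived defence genes moved the same way in part. Of 14 measured members of the indole glucosinolate and camalexin list 5 fell and 0 rose, with a median of -0.81. CYP71A12, a cytochrome P450 of indole defence metabolism, had 2.75 CPM in almt1 and 46.2 CPM in wild type at low phosphate (-4.03, interval -4.36 to -3.72), and at high phosphate 0.625 CPM in almt1 and 0.559 CPM in wild type. It read 40.4 CPM in stop1 at low phosphate, close to the wild-type level. PAD3, the last enzyme of camalexin synthesis, was at -2.03, CYP81F2 at -1.92, the regulator MYB51 at -1.86 and CYP79B2 at -1.20.

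Jasmonate genes gave 5 fallen and 0 risen members in each of 2 lists. The repressors and response genes numbered 12 measured with a median of -0.96, and the synthesis genes numbered 11 with a median of -0.83. JAZ10, a repressor that is itself induced by the hormone, had 1.91 CPM in almt1 and 14.5 CPM in wild type (-2.89, interval -3.30 to -2.49), while JAZ1 was at -1.51. LOX3, a lipoxygenase of the first synthesis step, had 0 counts in almt1 and 39 in wild type, and was at least 20.4-fold lower against a floor of 3 counts for the almt1 library. The oxide synthase AOS, at 12.9 CPM in almt1 and 29.6 CPM in wild type, was at -1.16.

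Genes that respond quickly to touch and stress fell in 6 of 15 cases and rose in 1, with a median of -0.83. TCH3, a calmodulin-like protein first known from touched plants, had 51.8 CPM in almt1 and 403 CPM in wild type at low phosphate (-2.92, interval -2.99 to -2.84). At high phosphate it had 15.1 CPM in almt1 and 16.6 CPM in wild type. WRKY46 was at -3.60, WRKY40, which overlaps another locus, at -2.13 and the zinc-finger repressor ZAT10 at -2.11. CBF2, a cold-response activator, was the member that rose, from few reads: 49 counts in almt1 and 11 in wild type (1.51, interval 0.54 to 2.60). Among hypoxia genes 5 of 10 fell, with the oxidase PCO1 at -1.84 and the sucrose synthase SUS1 at -1.26, and 0 rose.

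**Figure D2:**
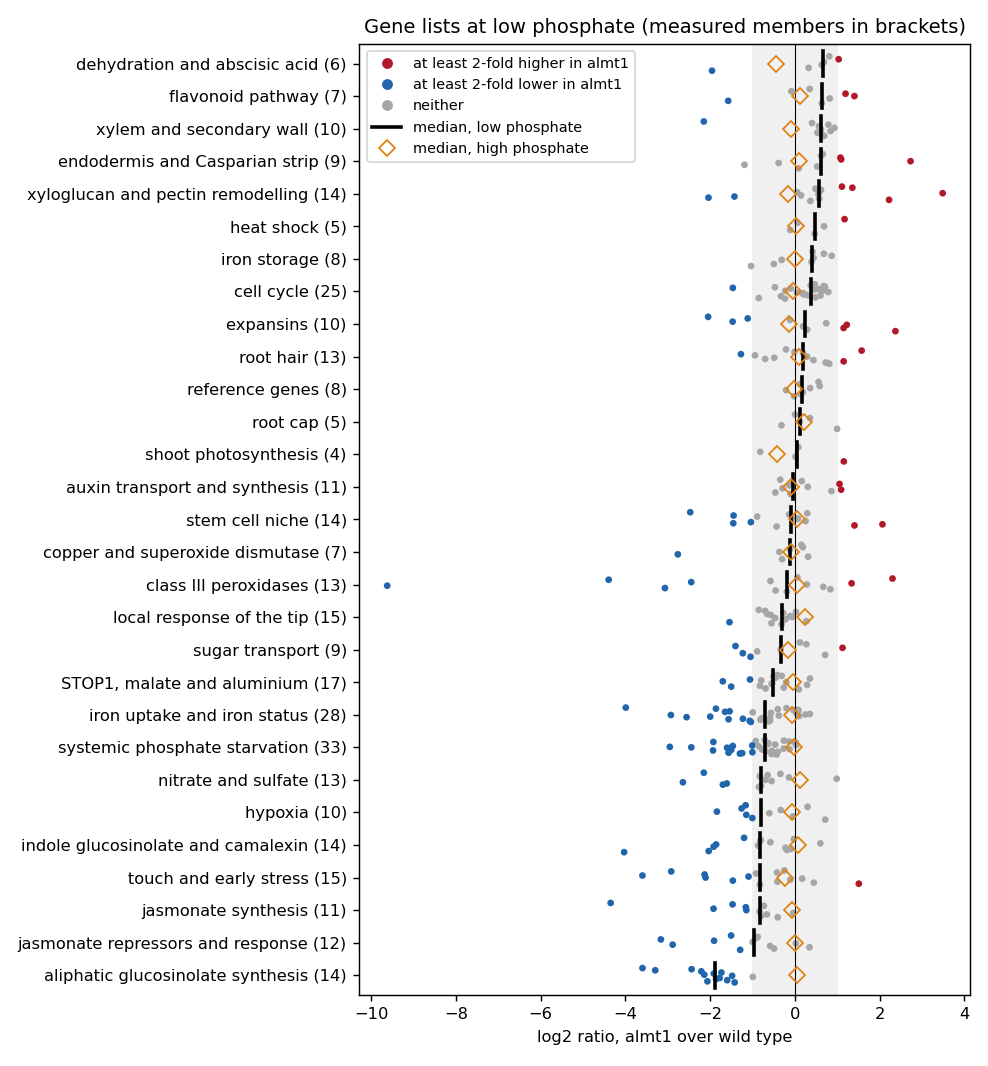
Each row is a gene list and each dot a measured member, placed by its log2 ratio, almt1 over wild type at low phosphate, with the list median as a black bar and the median of the high-phosphate pair as an open diamond. The aliphatic glucosinolate list lies furthest left with a median of -1.89, while its high-phosphate diamond sits at 0.05.

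Some iron acquisition genes were lower in almt1. Of 28 measured members 11 fell and 0 rose, with a median of -0.70, and at high phosphate 0 passed with a median of -0.07. IRT1, the main iron importer of the root surface, had 2.06 CPM in almt1 and 33.6 CPM in wild type at low phosphate (-3.99, interval -4.37 to -3.63), a 15.9-fold difference. At high phosphate it had 16.6 CPM in almt1 and 11.1 CPM in wild type, in stop1 1.53 CPM at low phosphate and 6.72 CPM at high phosphate, and 0.466 CPM in wild type on low iron. The wild-type low-phosphate tip therefore held the highest value of the 9, and almt1 at low phosphate was 1 of 3 libraries under 3 CPM.

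CYP82C4, which makes a secreted iron-binding coumarin, was at -2.93 with 1.24 CPM in almt1 and 9.70 CPM in wild type. The nicotianamine synthases NAS2 and NAS1, which make a metal chelator, were both lower. NAS2 had 15.04 CPM in almt1 and 90.9 CPM in wild type (-2.56), and NAS1 7.63 CPM in almt1 and 31.3 CPM in wild type. In the other 7 libraries NAS2 lay between 13.2 and 31.6 CPM. The ferric reductase FRO2 was at -1.86. FIT, the transcription factor required for IRT1 and FRO2 expression, had 31.9 CPM in almt1 and 31.2 CPM in wild type (0.07, interval -0.07 to 0.21). Members that fell by less included the regulators bHLH39 (-1.65) and bHLH38 (-1.54, overlapping another locus) and the vacuolar metal transporter MTP3 (-1.23). These 3 and FIT were named after their values were seen. Iron storage genes showed 0 risen and 0 fallen members of 8 measured, with a median of 0.40. YSL1, a transporter of metal chelates, was at -1.03 on 13 counts in almt1 and 17 in wild type, and its interval of -2.20 to 0.09 spans equality. The ferritin FER3 had 168 CPM in almt1 and 94.6 CPM in wild type (0.87, interval 0.79 to 0.94). FSD1, an iron superoxide dismutase, had 6.38 CPM in almt1 and 44.5 CPM in wild type (-2.76, interval -2.99 to -2.54) and was the 1 fallen member of 7 measured copper and dismutase genes. Its level was at most 10.7 CPM in the other 7 libraries.

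**Figure D3:**
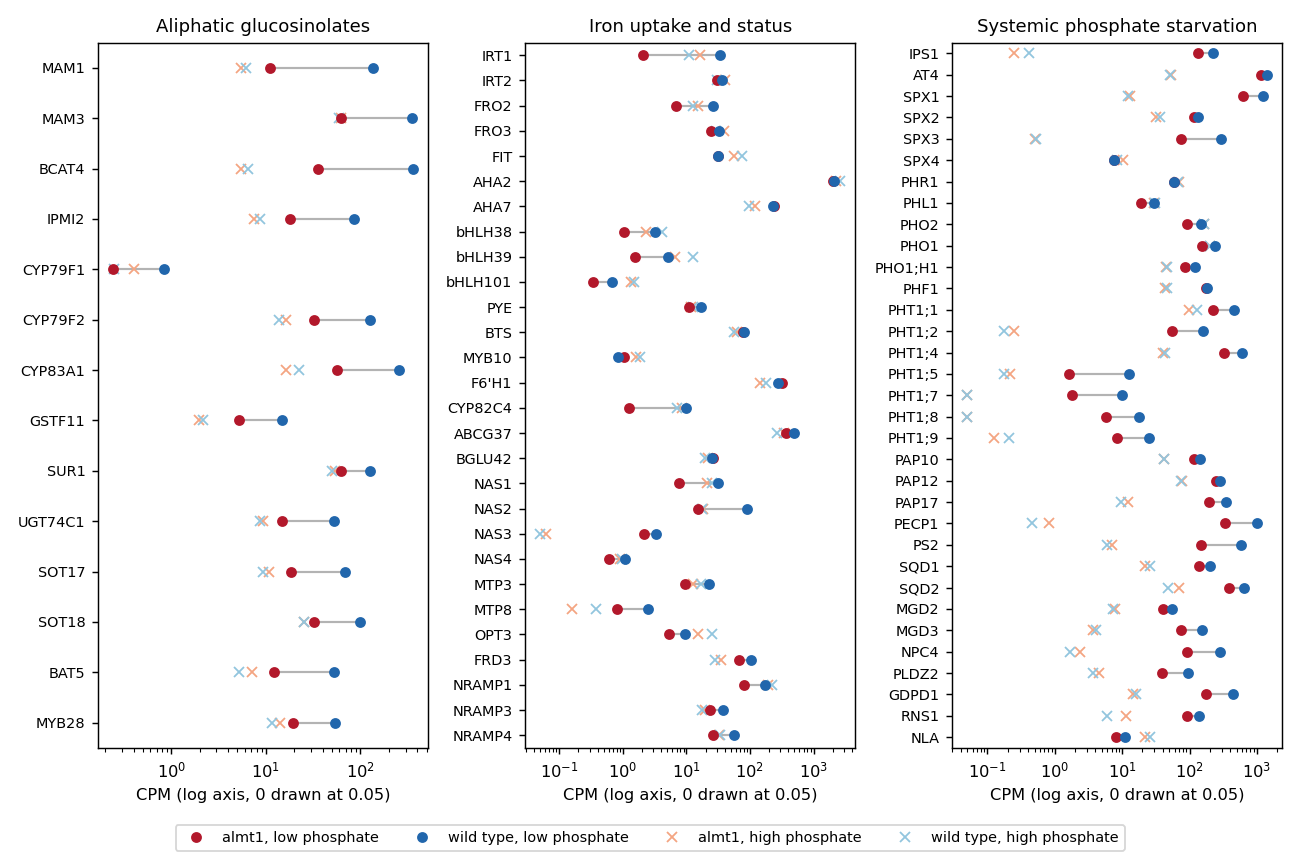
Levels in CPM on a log axis for the measured members of the aliphatic glucosinolate, iron and systemic phosphate lists, with filled circles for the low-phosphate pair (almt1 red, wild type blue) joined by a line and crosses for the high-phosphate pair. The red circle lies left of the blue one for all 14 glucosinolate members, by 12.1-fold at MAM1, while the crosses of both genotypes lie close together.

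Few genes of the local response of the tip passed the limit. Of 15 measured members 0 rose and 1 fell (6.67%), beside 4.53% higher and 8.13% lower over all loci. The median of the list was -0.32. RBOHD, a membrane oxidase that makes reactive oxygen, had 26.8 CPM in almt1 and 80.2 CPM in wild type (-1.54, interval -1.66 to -1.43). LPR1, which overlaps another locus, had 5.17 CPM in almt1 and 9.60 CPM in wild type (-0.85, interval -1.16 to -0.55). LPR2 was at -0.70, and the receptor-like genes CLV2 and PEPR2 at -0.66 and -0.57.

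Cell wall genes split by member. Class III peroxidases, which cross-link walls, had 2 risen and 4 fallen members of 13 measured. The list holds a part of the family. By RefSeq product name, a set chosen after values were seen, 9 of 58 measured peroxidases rose (15.5%) and 21 fell (36.2%). PER52 had 2 counts in almt1 and 1005 in wild type (-9.62, interval -12.67 to -7.76), which was the lowest ratio of all measured loci. PER62 had 13.2 CPM in almt1 and 113 CPM in wild type (-3.07), and PER37 54.1 CPM in almt1 and 303 CPM in wild type (-2.45). In the other direction PER27 had 573 CPM in almt1 and 119 CPM in wild type (2.30, interval 2.24 to 2.36), and at high phosphate 706 CPM in almt1 and 870 CPM in wild type.

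Expansins, which loosen walls, had 3 risen and 3 fallen members of 10. EXPB1 rose with 37.0 CPM in almt1 and 7.36 CPM in wild type (2.37, interval 2.13 to 2.63), and EXPA1 fell with 24.3 CPM in almt1 and 103 CPM in wild type (-2.05, interval -2.17 to -1.93). XTH17, an enzyme that cuts and rejoins xyloglucan, was higher at 234 CPM in almt1 against 21.4 CPM in wild type (3.49, interval 3.35 to 3.63). Of the other 7 libraries, stop1 with malate had 57.4 CPM and almt1 with malate 86.3 CPM, and the rest lay between 206 and 273 CPM. Wild type at low phosphate was thus the lowest, and the mutants with malate came next. The pectin methylesterase PME2 was at 2.22, and XTH22 was lower at -2.04.

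Markers of tip tissues changed in a few members each. The stem cell niche list had 2 risen and 4 fallen of 14. WOX5, the marker of the quiescent centre, had 1.24 CPM in almt1 and 7.06 CPM in wild type (-2.47, interval -3.01 to -1.96), and the root regulator PLT3, which overlaps another locus, was at -1.45. The growth-factor peptide genes RGF2 (2.06, overlapping another locus) and RGF3 (1.40) rose, while RGF1 lay the other way at -1.455. Endodermis genes had 3 risen and 0 fallen of 9, with CASP5, a Casparian strip protein whose gene overlaps another, at 15.7 CPM in almt1 and 2.44 CPM in wild type (2.73). CASP4 was at 1.09, and 1 of the 3 risen members went inside 2-fold with total-count scaling. ESB1, of the same list, was at -1.189, but its interval spans equality, so it does not count as fallen.

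Division genes, 25 measured, had 0 risen and 1 fallen member with a median of 0.37, and the fallen one, CYCD6;1, rested on 21 counts in almt1 and 37 in wild type and overlaps another locus. Root cap genes had 0 of 5 past the limit in either direction. Xylem genes had 1 fallen of 10, VND6, which also overlaps another locus, on 12 counts in almt1 and 34 in wild type, and a median of 0.62. Shoot photosynthesis genes were low in both libraries, with a summed level of 32.0 CPM in almt1 and 26.9 CPM in wild type. Of those 7 genes 4 were measured and 1 rose, PSAD-1 at 1.15, and RBCS3B had 0 counts in almt1 and 1 in wild type. The list of root hair fate and growth genes had 2 risen members of 13, RSL1 (1.57) and WER, a regulator of the non-hair fate (1.15). LRX1 fell (-1.27). Of the 13 ratios 7 lay above 0 and 6 below, and the summed level was 728 CPM in almt1 and 1026 CPM in wild type.

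Sulfur and nitrogen genes were mostly below wild type. In the nitrate and sulfate list 4 of 13 fell and 0 rose, with a median of -0.80. LSU1, a protein induced by scarce sulfur, had 2.27 CPM in almt1 and 14.6 CPM in wild type (-2.64, interval -3.03 to -2.27), and the sulfate-reducing enzyme gene APR1, which overlaps another locus, was at -1.70. SULTR1;1 was the 1 member above 0, at 0.99, inside 2-fold. Smaller lists had members on both sides. Sugar transport had 1 risen (SWEET13, 1.12) and 3 fallen (SWEET12, -1.40; SUC2, -1.23; STP13, -1.05) of 9. The flavonoid list had 2 risen (FLS1, 1.40, and F3'H, 1.19) and 1 fallen (UGT78D1, -1.57) of 7. Auxin genes had 2 risen of 11, LAX3 at 1.09 and PIN4 at 1.05, and PIN4 went inside 2-fold, to 0.97, with total-count scaling. The dehydration list had COR47 at 1.03 (0.95 with total-count scaling, inside 2-fold) and ABI5 at -1.96 among 6, and the heat list had HSFA2 at 1.17 among 5. None of 8 reference genes passed, and their median was 0.16. In all, 25 of 360 measured list members rose and 93 fell, beside 4.53% of all measured loci higher and 8.13% lower.

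The 15 lowest ratios among loci with at least 10 CPM in the higher library that overlap no other were not pathway genes of these lists, PER52 apart. They included PDF1, a cell wall protein of the epidermal layer of shoots, with 0.212 CPM in almt1 and 46.8 CPM in wild type (7 and 961 counts, -7.75, interval -9.07 to -6.70). PDF2, a homeodomain regulator of epidermal identity, had 0.121 CPM in almt1 and 10.8 CPM in wild type (-6.44). The lipid transfer protein gene LTP6 was at -6.87, its relative AT5G01870 at -6.59, and the glycine-rich protein genes AT4G29020, GRP5 and AT4G21620 at -7.63, -7.35 and -6.09. LCR67, a plant defensin, had 0 counts in almt1 and 266 in wild type, and was at least 139-fold lower against a floor of 3 counts. The ATPase gene AT3G28510 likewise had 0 counts in almt1 and 281 in wild type, at least 147-fold lower.

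The remaining ones were the transporter ABCA8 (-7.24), the methyltransferase CCOAMT (-7.02), the chitinase gene AT2G43620 (-6.98), PP2-B14 (-6.70) and the dehydration-responsive RD22 (-6.68). Wild type at low phosphate held the highest level of the 9 libraries at 14 of the 15, where the 2 high-phosphate libraries reached at most 2.03 CPM in almt1 and 5.49 CPM in wild type. The exception was AT2G43620, which reached 53.8 CPM in almt1 with malate and 18.5 CPM in stop1 with malate. Since the low ratio chose these loci, their height in the wild-type library is a description.

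The 15 highest ratios among loci with at least 10 CPM and no overlapping locus were led by AT5G46900, with 144 CPM in almt1 and 7.99 CPM in wild type (4.21, interval 3.99 to 4.45), and by AT5G46890, with 137 CPM in almt1 and 8.38 CPM in wild type (4.07). Both encode proteins of the lipid transfer and seed albumin superfamily, as do AT4G22460 (3.46) and AT4G12510 (3.39), and reads of such close relatives can be shared. Arabinogalactan proteins, glycoproteins of the cell surface, supplied AGP30 (3.95), AGP13 (3.51) and AGP14, the last with 319 CPM in almt1 and 38.1 CPM in wild type (3.10, interval 3.00 to 3.21). BR6OX1, an enzyme of brassinosteroid synthesis, had 11.1 CPM in almt1 and 0.780 CPM in wild type (3.87).

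Also in this group were AT4G25830 (4.04), XTH17, the pectin esterase inhibitor gene AT4G25250 (3.45), ALMT12, an anion channel of the same family as ALMT1 (3.19), the transporter gene AT1G52190 (3.18), the fatty acyl reductase CER4 (3.18) and the desaturase gene AT1G06120 (3.17). At all 15 the wild-type low-phosphate library had the lowest level of the 9. Their levels there ran from 0.731 to 38.1 CPM, against 11.1 to 319 CPM in almt1 at low phosphate. At high phosphate they ran from 7.10 to 280 CPM in almt1 and from 6.22 to 424 CPM in wild type. The malate libraries were also low at some of these loci. AGP30 had 15.4 CPM in almt1 and 12.3 CPM in stop1 with malate, beside 118 CPM in wild type at high phosphate. At ALMT12 they were not low, with 6.34 CPM in almt1 and 8.135 CPM in stop1, beside 6.22 CPM. Since the high ratio chose these loci, their low level in the wild-type library is a description.

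**Figure D4:**
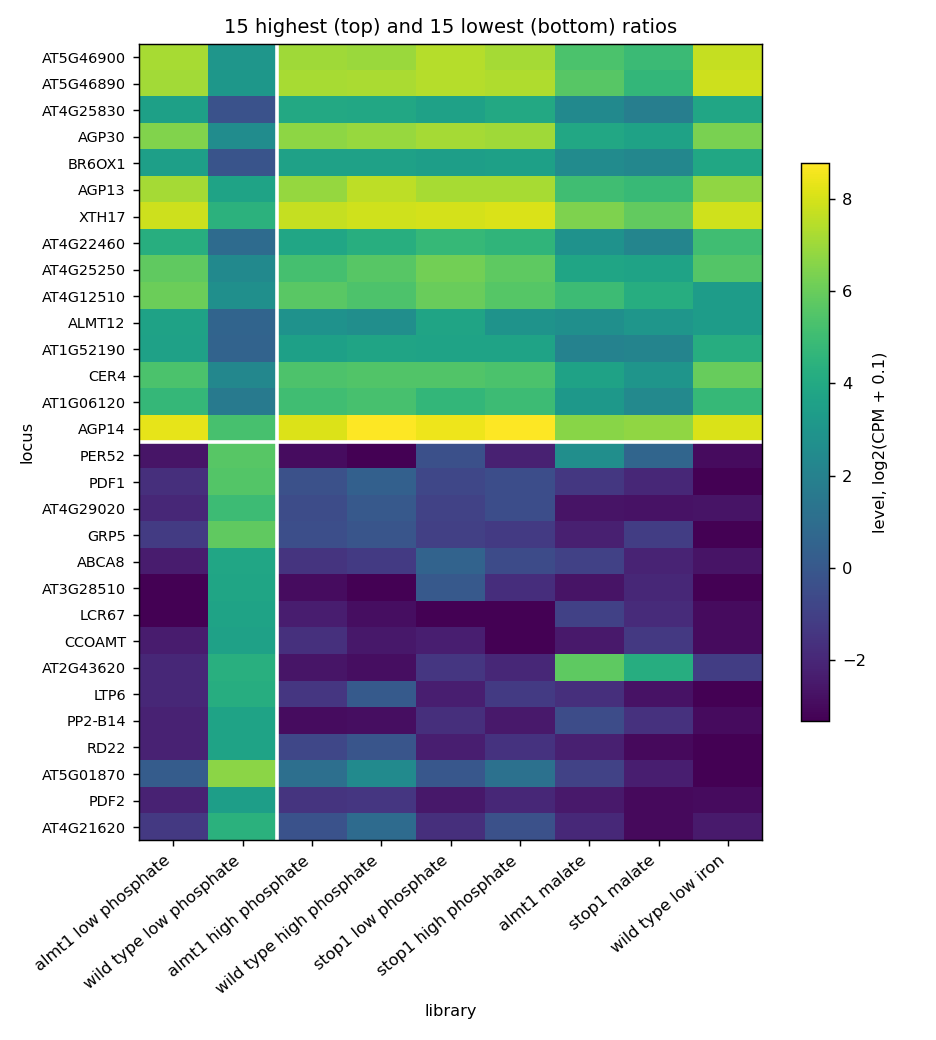
Levels as log2(CPM + 0.1) in all 9 libraries for the 15 highest (top block) and 15 lowest (bottom block) ratios, with almt1 and wild type at low phosphate in the first columns. The wild-type low-phosphate column is the darkest in the top block at all 15 loci and the brightest in the bottom block at 14 of 15.

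The high-phosphate pair is the one comparison of the same genotypes that uses other libraries. Across the 19600 loci measured in both pairs, Pearson's r between the log2 ratios was -0.14 and Spearman's rho -0.18, a description across genes, which are not independent replicates. Of 891 loci higher in almt1 at low phosphate, 16 (1.80%) were also higher at high phosphate and 14 (1.57%) were lower, beside 0.939% higher and 0.480% lower over all 19600. Of 1300 loci lower at low phosphate, 28 (2.15%) were also lower at high phosphate and 90 (6.92%) were higher. Mitochondrial and plastid loci made up 38 of those 90.

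LRX1, an extensin of root hair walls, was among the loci that passed the limit in opposite directions. It had 79.0 CPM in almt1 and 196 CPM in wild type at low phosphate (-1.27, interval -1.34 to -1.20). At high phosphate it had 61.6 CPM in almt1 and 24.8 CPM in wild type (1.304, interval 1.18 to 1.43). Its paralog LRX2 had ratios of -0.94 at low phosphate and 0.89 at high phosphate, inside 2-fold both times. The nitrate transporter NRT2.1 was at -2.15 on 12 counts in almt1 and 34 in wild type at low phosphate, and at 1.78 at high phosphate. The only list members past the limit at high phosphate were these, LRX1 and NRT2.1, together with the heat gene HSP18.2 at -1.08.

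**Figure D5:**
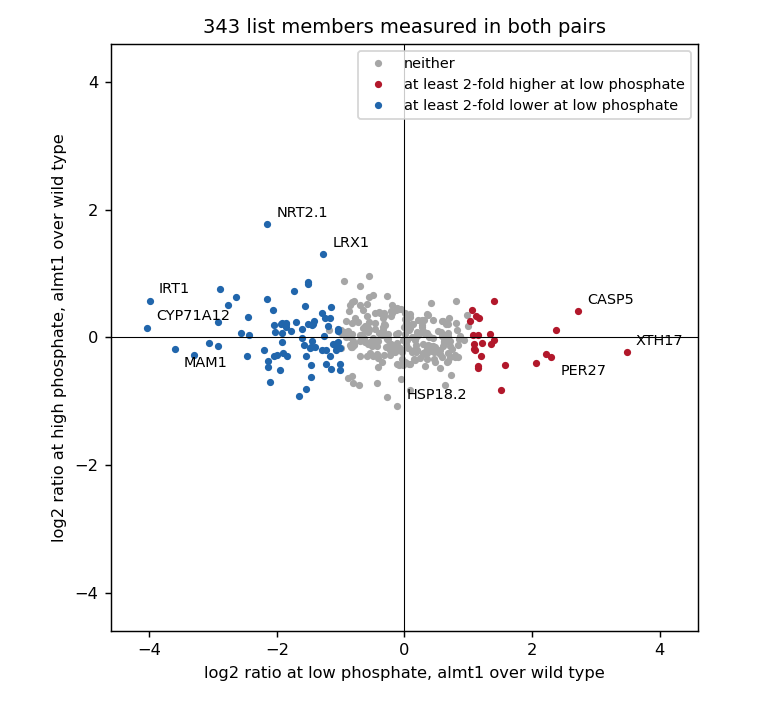
Log2 ratios, almt1 over wild type, of 343 list members measured in both pairs, at low phosphate on the horizontal axis and at high phosphate on the vertical axis, coloured by their low-phosphate class. The points spread from -4.03 at CYP71A12 to 3.49 at XTH17 along the horizontal axis, while 340 of 343 stay within 2-fold along the vertical one, with LRX1 and NRT2.1 above it.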

How the data were processed

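Polyadenylated RNA of root tips was sequenced in 9 libraries, 1 per group, per the labels. The deposited values are raw counts of reads per locus, and the submitters' processing notes name TopHat2, HTSeq and TAIR10 without versions. The 5 summary lines of each file, for reads not assigned to 1 gene, were kept out of library sizes. Groups followed the labels. Members, gene lists and families were chosen with earlier results of these data known.

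Counts were scaled by TMM factors from the 2 libraries compared (edgeR 4.0.16 in R 4.3.3). Each log2 ratio carries an exact conditional binomial interval (95%, scipy 1.17.1). Its calculation was checked on counts simulated with counting error alone, as the interval assumes, and without spread between samples. A count of 0 was set to a floor of 3 counts. Intervals and floors cover counting error only. No test was made, since 1 library a group gives no spread between samples. CPM used TMM factors of all 9 libraries, and 3 counts were 0.0767 to 0.146 CPM.

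Genes were named by a rule: ALMT1 and STOP1, the 15 highest and 15 lowest ratios with at least 10 CPM in the higher library and no overlapping locus, and up to 5 members with the largest absolute ratio in each of 29 lists (388 genes). Names, overlaps (either strand, at least 1 base) and promoter windows came from RefSeq TAIR10.1, which held 32835 of 33602 loci. The libraries do not keep the strand, so counts of 5638 measured loci that overlap another are uncertain as to gene. Alternatives were DESeq2 1.42.0 size factors, total counts, 9-library factors, other count minimums, other fold limits, and leaving out overlapping or organelle loci. 1 gene of the lists is not reported here by name.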

Additional observations from a re-analysis of the deposited data

Results flagged for a closer look

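Among the named genes, LRX1 and NRT2.1 passed the 2-fold limit in opposite directions in the low-phosphate and the high-phosphate pair. LRX1 had a log2 ratio, almt1 over wild type, of -1.27 at low phosphate and 1.304 at high phosphate. NRT2.1 had -2.15 at low phosphate, on 12 counts in almt1 and 34 in wild type, and 1.78 at high phosphate, on 58 counts in almt1 and 15 in wild type. The difference between the pairs was not tested, because each group has 1 library.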

How the results depend on the processing

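The counts of loci past the limit moved most with the limit itself. With a 1.5-fold limit 2369 loci were higher and 2874 lower in almt1, and with a 4-fold limit 171 were higher and 664 lower. Where the interval had to leave out 2-fold, 394 were higher, while the 1097 lower stayed within 1.5 times the reported count. Under DESeq2 size factors, total counts, 9-library factors, minimums of 1 and 100 counts, at least 4 counts in each library (chosen after seeing the data), and with overlapping or organelle loci left out, both counts stayed within 1.5 times those reported, at 648 to 966 higher and 1122 to 1921 lower. Total counts shifted all ratios by -0.08 on the log2 scale and left 22 list members higher and 98 lower. Of the named genes past the limit 0 changed direction under DESeq2 factors or total counts. Of 174 named genes in all, 3 that lay near 0 changed sign under total counts, SMB to -0.08, RCA to -0.07 and HSP101 to -0.02. Another 3, PIN4 and COR47 among them, fell inside 2-fold under total counts. No paired analysis was possible because each group has 1 library, and for that reason none could be left out. Depth limits ratios of loci with few counts: of loci with 20 to 99 counts, 11.3% were higher and 21.9% lower, against 5.50% and 3.86% above 10000 counts.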

Other observations

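Several gene families were described only after their values were seen, by RefSeq product name. Arabinogalactan proteins had 12 risen and 1 fallen of 33 measured in almt1 at low phosphate, with a median log2 ratio of 0.57. Early nodulin-like proteins had 6 risen and 0 fallen of 13, led by ENODL18 with 72.2 CPM in almt1 and 16.3 CPM in wild type. Pectin lyase-like proteins had 12 risen and 2 fallen of 52. Ribosomal proteins had 24 risen and 3 fallen of 355, and 331 of the 355 ratios lay above 0 with a median of 0.55. At high phosphate their median was -0.30. In the other direction, immune receptors of the TIR-NBS-LRR class had 28 fallen and 0 risen of 72, WRKY transcription factors 14 fallen and 1 risen of 47, NAC transcription factors 15 fallen and 0 risen of 56, and MATE efflux proteins 14 fallen and 1 risen of 41. WRKY28 had 0.242 CPM in almt1 and 9.60 CPM in wild type. Over all measured loci 4.53% were higher and 8.13% lower, and in the shortest length class 10.6% were higher and 10.9% lower. Gene length within these families was not examined.

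Epidermal layer and cuticle genes, a list of 20 also drawn up after the values were seen, had 13 fallen and 1 risen of 19 measured, with a median of -3.55. Its lowest member was PDF1 (-7.75), already among the 15 lowest ratios above, so these counts partly repeat that choice. The regulator ATML1 had 6 counts in almt1 and 127 in wild type (-5.05), the wax enzyme CER6 2 counts in almt1 and 107 in wild type (-6.39, interval -9.45 to -4.50), and LTP2 0.757 CPM in almt1 and 28.1 CPM in wild type (-5.18). CER1 rose (2.21). At high phosphate 4 of 17 measured members were lower in almt1 and 0 higher, with a median of -0.43. The summed level of the list was 173 CPM in almt1 and 452 CPM in wild type at low phosphate, and 56.1 to 264 CPM in the other 7 libraries.

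Proline-rich extensin-like genes, whose repeats make reads of different copies hard to tell apart, had 11 fallen and 0 risen of 12 in almt1 at low phosphate, with a median of -1.43. At high phosphate 11 of 12 were higher in almt1 and 0 lower, with a median of 1.58. Their summed level was 2445 CPM in almt1 and 8046 CPM in wild type at low phosphate, and at high phosphate 2746 CPM in almt1 and 916 CPM in wild type. Alignments that were not unique were 8.29% of all counts in almt1 and 44.9% in wild type at low phosphate. At high phosphate they were 14.3% in almt1 and 5.03% in wild type. Within each pair their share was higher where the family was higher. Wild type on low iron had 4864 CPM at a share of 4.39%. With malate, almt1 had 4195 CPM at 4.50% and stop1 3159 CPM at 4.19%. Without malate, stop1 had 1007 CPM at 5.38% at low phosphate and 771 CPM at 4.35% at high phosphate. The part of this share in the result was not tested.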
